A study of Mus musculus with 15 samples.

Results

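Accessible chromatin was profiled by ATAC-seq in monolayer cultures of 6DT1, a mouse mammary cancer cell line, in which *Smarcd1* had been raised or lowered. *Smarcd1* encodes a subunit of the BAF (SWI/SNF) complex, which uses ATP to slide or evict nucleosomes. The 15 libraries came from 5 groups of 3, all of them lentivirally transduced and otherwise untreated. EV cells carried the empty vector and OE cells a *Smarcd1* cDNA with a Myc tag, both under blasticidin. Scr cells carried a scrambled control shRNA, and KD4 and KD6 cells were lines made with different shRNAs against *Smarcd1*, all under puromycin. The parental genotype was given as wild type. EV is the matched control of OE, and Scr that of both KD lines. The labels, in text about RNA samples, say that replicates were seeded from different passages, so the p-values below measure only the spread between such cultures.

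The counts were deposited as a pair of tables with different region lists, one for the OE and EV comparison and one for the KD and Scr comparison, and each list rests on peaks the authors called. The regions described here are those of the OE table that shared no base with any region of the KD table, with chromosomes M, X and Y left out. There were 10259 of them among the 36830 autosomal regions of the OE table, and the tables together listed 82634 regions before any exclusion. The remaining 26571 autosomal regions shared at least 1 base with the KD table and are called shared regions below. Another 17295 autosomal regions stood in the KD table only, with a median width of 266 bp. The OE table held counts for all 15 libraries, so that each OE-only region could be followed in the Scr, KD4 and KD6 cells as well.

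An ATAC-seq region is a stretch where the Tn5 transposase cut more often than around it. Open promoters give tall and often wide regions in most cells, whereas distal elements are more often weak and cell-type restricted. A weak region lies near the limit of peak calling, where the same signal can be called in one set of libraries and missed in another. BAF acts at both kinds of element and is known for keeping distal enhancers open.

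Libraries held 22668622 to 31225956 counts over the OE table, and 5947537 to 7999457 counts fell in OE-only regions. The median OE-only region held 37.3 to 63 counts per library, against 150 to 211 for a shared region. Levels are given below as CPM, counts scaled to a common library size after TMM. EV replicate 1 stood apart, with the lowest TMM factor (0.869) and with values far above those of all other libraries at some of the tallest regions, as given below. The series title names ATAC and the labels genomic DNA, while their extraction text describes RNA, so that it could not be settled whether the counts hold ATAC reads alone. Neither *Smarcd1* nor any other gene could be placed on these coordinates with the annotations used here, so the targeted gene was not checked and regions are named by position in mm39.

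OE-only regions were weak. Their mean level over the 15 libraries had a median of 1.81 CPM (quartiles 1.01 and 4.10), against 6.93 CPM (3.02 and 17.0) for shared regions. Per kb of region the medians were 6.75 and 24.7 CPM. The OE-only median per kb was the lower in 19 of 19 autosomes, with 5.82 to 8.66 CPM per kb against 22.9 to 28.9 in shared regions. By level, 2514 OE-only regions lay under 1 CPM, 5592 from 1 to 5 CPM and 1525 from 5 to 20 CPM. A further 519 lay from 20 to 100 CPM, 93 from 100 to 1000 CPM and 16 at 1000 CPM or more. Regions are not replicates of a condition, so these differences are described without a test.

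**Figure D1:**
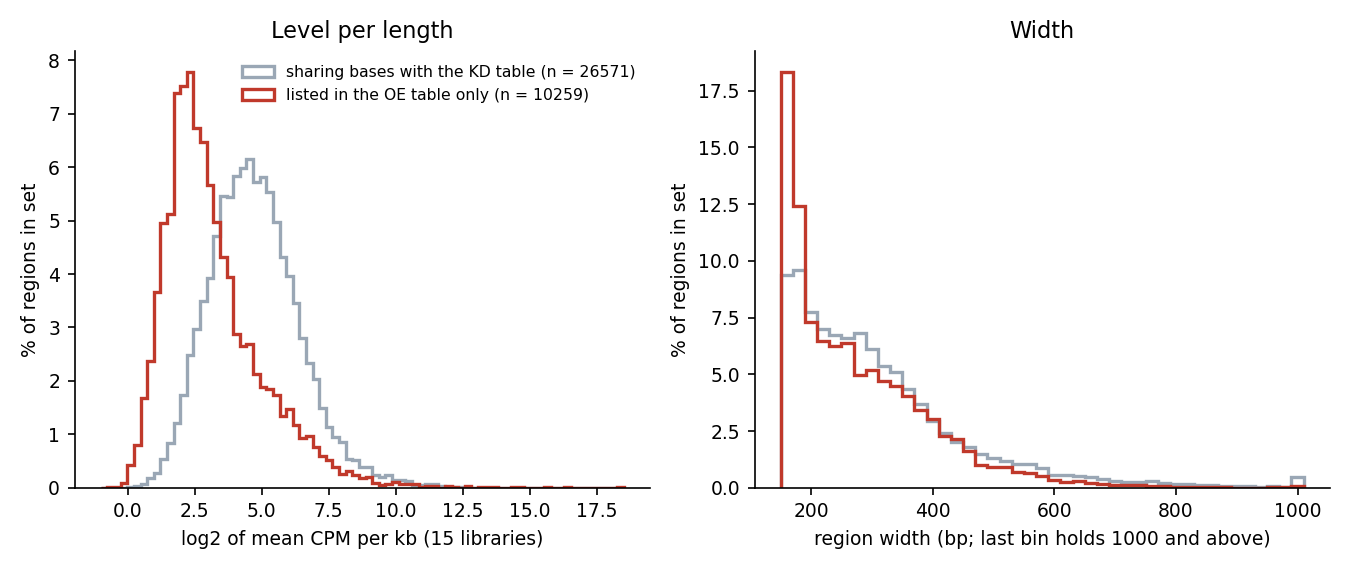
Level per length and width of the 10259 regions listed in the OE table only and of the 26571 shared regions. The left panel plots the log2 of the mean CPM per kb over 15 libraries and the right panel the width in bp, both as percent of the regions of each set. The OE-only curve peaks at a lower level and has its tallest bin at the narrowest widths.

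They were also narrower, although the width difference turned with the level. The median width was 247 bp (quartiles 179 and 342) in OE-only regions and 278 bp (205 and 370) in shared regions, with autosomal medians of 230 to 264 bp and 266 to 288 bp. When all autosomal regions were ranked by CPM per kb and split into 5 bins of equal size, the lowest bin held 47.1% of the OE-only regions and 9.55% of the shared regions. Within that bin OE-only regions were the wider set, with a median of 286 bp against 260 bp. They were the narrower set in the other 4 bins, and in the highest bin the medians were 183 and 302 bp. The widest OE-only regions lay at chr6:91682137-91683471 (1335 bp, mean 6.47 CPM), chr9:70158575-70159860 (1286 bp, 2.05 CPM) and chr7:112499997-112501072 (1076 bp, 19.2 CPM). Ranked by CPM alone, without division by width, the 16 OE-only regions at 1000 CPM or more had a median width of 227 bp, near that of the whole set.

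Despite the low median, counts were concentrated in very few OE-only regions. The 2 highest held 41.3% of all counts in the set, the 10 highest 68.2% and the 20 highest 73.2%. It took 800 regions to reach 90% of the counts, against 10429 in the shared set, where the 2 highest held 10.7%. Of the 10 autosomal regions of the OE table with the highest mean CPM, 8 were OE-only regions. The median width of the 20 highest was 224 bp.

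The tallest pair lay on chromosome 12, 202 kb apart. The region chr12:69206125-69206286 (162 bp) averaged 53193 CPM and chr12:69408041-69408194 (154 bp) averaged 53154 CPM. The ratio of their counts was between 0.999 and 1.002 in every library. Values this close occur where reads fit both places equally well, and the sources used here do not say how such reads were counted, so the pair may hold 1 set of reads listed at both sites. In the first of them EV libraries had 66719, 59810 and 54840 CPM, and OE libraries 50344, 58372 and 49699 CPM. The Scr libraries had 55119, 45754 and 50197 CPM. KD4 libraries had 54464, 43201 and 62157 CPM, and KD6 libraries 58488, 44613 and 44118 CPM. Every pair of groups overlapped in this region.

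The next 3 in height were chr5:146197860-146198087 (mean 19043 CPM), chr14:51044959-51045163 (11023 CPM) and chr9:78082632-78082857 (10960 CPM). On chromosome 14, EV replicate 1 had 21392 CPM, while the other 14 libraries ran from 7666 to 13386 CPM. On chromosome 9 the same library had 21595 CPM and the others 8235 to 14220 CPM. None of the 5 tallest passed the edgeR quasi-likelihood test in OE against EV (adjusted p of 0.569 or more) or in KD against Scr (0.784 or more). Next in height were chr11:108902520-108902884, 3 regions between 40156734 and 40159602 on chromosome 17, and chr4:43492839-43493013. In the last of these EV replicate 1 had 8841 CPM and no other library more than 4695 CPM.

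By the median, OE-only regions lay farther from their neighbours than shared regions did. The median distance to the next region of the OE table was 2511 bp, against 944 bp for shared regions, and it was the longer in 19 of 19 autosomes (1611 to 3490 bp against 758 to 1254 bp). A neighbour within 1 kb was present for 28.3% of OE-only and 51.2% of shared regions. At the far end the order turned, with 2.12% of OE-only and 3.39% of shared regions at 100 kb or more from the next. The nearest region of the KD table was a median of 4578 bp away and never closer than 60 bp. Of the 10259, 9159 lay at 500 bp or more from every KD-table region.

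Level fell with that distance. The 160 OE-only regions under 200 bp from a KD-table region had a median of 15.6 CPM per kb. The 2059 regions from 200 to 1000 bp had 10.9 CPM per kb, the 4800 from 1 to 10 kb 7.05, the 2931 from 10 to 100 kb 4.67 and the 309 beyond 100 kb 4.35. On the other side of the rule, 13 shared regions were covered by the KD table over under 10% of their bases and had 10.1 CPM per kb. The 455 covered by under 50% had 13.5 CPM per kb, and the 15185 covered whole had 25.5. Regions just inside and just outside the rule thus lay between the medians of the OE-only and the shared set.

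The set was not spread evenly over the genome. OE-only regions made up 27.9% of the autosomal regions of the OE table. The lowest share was 23.9% on chromosome 13 and the highest 35.9% on chromosome 6, followed by 31.8% on chromosome 15 and 30.2% on chromosome 14. Without chromosome 6 the share was 27.3%. The region following an OE-only region along a chromosome was again OE-only in 47.4% of cases, against 20.3% after a shared region. Of 62 windows of 1 Mb with at least 20 OE-only regions, 12 lay on chromosome 6. The fullest held 77 OE-only and 24 shared regions from 28000001 to 29000000, and 71 and 26 from 31000001 to 32000000.

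**Figure D2:**
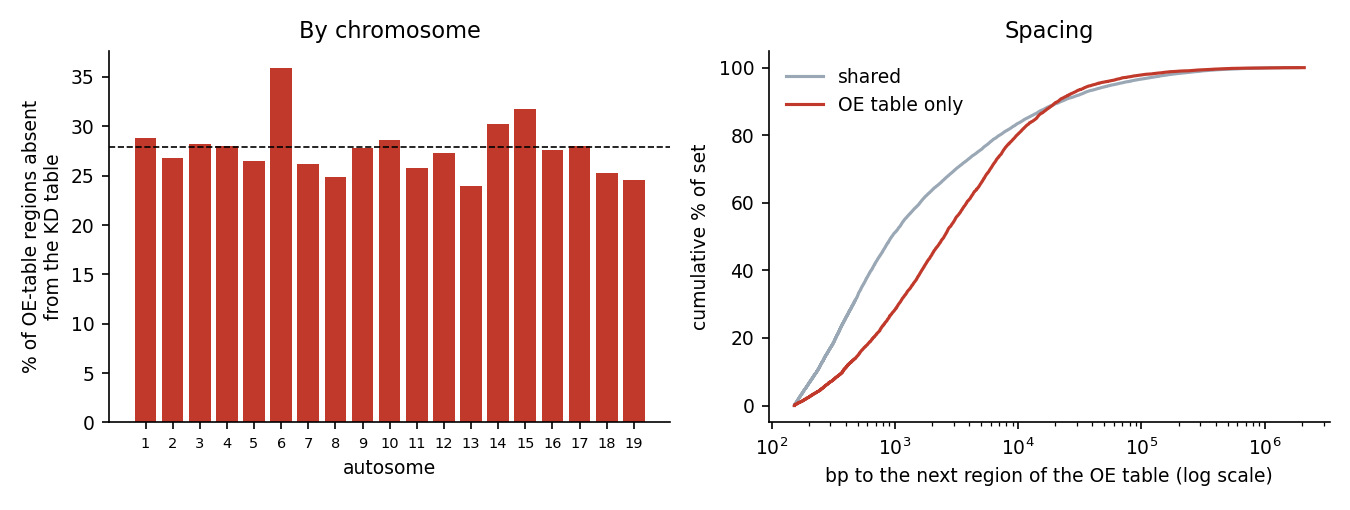
Place and spacing of OE-only regions. The left panel gives, for each autosome, the percent of OE-table regions that share no base with the KD table, with the dashed line at 27.9% for all autosomes. The right panel gives the cumulative percent of regions by distance in bp to the next region of the OE table, on a log axis, for OE-only and shared regions. Chromosome 6 stands highest at 35.9%, and the OE-only curve lies to the right of the shared curve over most distances.

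When OE-only regions at most 10 kb apart were joined, 1870 runs of 2 or more held 6090 of them (59.4%) and 4169 stood alone. There were 47 runs of 10 or more, which held 749 regions. The largest run lay on chromosome 17 from 12961235 to 13040847 and held 45 OE-only regions over 79.6 kb, with 10 shared regions between them. Its members were low, with mean levels of 0.405 to 12.6 CPM, and widths of 154 to 981 bp. Their summed level was 136 ± 27.4 CPM in EV, 179 ± 51.2 in OE, 179 ± 45.3 in Scr, 130 ± 16.7 in KD4 and 149 ± 47.5 in KD6 (SD, n = 3). EV libraries had 147, 105 and 157 CPM and OE libraries 159, 141 and 237 CPM, which overlap. The next runs by number lay on chromosome 15 from 50548916 to 50680156 (43 regions) and from 61910708 to 62005536 (36 regions), on chromosome 6 from 31036041 to 31113242 (32 regions) and on chromosome 10 from 120239472 to 120302134 (29 regions).

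The rule that defines the set is a matter of listing, and most OE-only regions held at least 10 counts in all 15 libraries. A count of 10 is not a peak call, so it does not tell whether a region was open in a group. After thinning every library to 21023563 autosomal counts, 8076 OE-only regions (78.7%) had at least 10 counts in all 15 libraries, against 97.0% of shared regions. A count of 10 was reached in no library by 12 regions. No region reached it in all EV and OE libraries while missing it in all others, or the reverse. The number of OE-only regions at 10 counts was 9001, 9003 and 9589 in EV and 9960, 9715 and 10093 in OE libraries. All 3 OE libraries stood above all 3 EV libraries, by 725 regions on average (two-sided exact permutation test, p = 0.1, the smallest that 3 against 3 libraries allow; Benjamini-Hochberg adjusted p = 0.1). The same separation was present in shared regions, with 26147, 26268 and 26408 detected in EV and 26451, 26419 and 26504 in OE libraries. Scr libraries had 9918, 9794 and 9986 such OE-only regions, KD4 libraries 9778, 9600 and 9528, and KD6 libraries 9266, 9649 and 9927. The KD mean was lower by 275 regions, with overlap in KD6 replicate 3 (exact permutation p = 0.0714, adjusted p = 0.1, smallest possible p = 0.0119).

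The typical level also varied between libraries of 1 group. The median CPM over OE-only regions was 1.49, 1.40 and 1.70 in EV, 1.78, 1.62 and 2.16 in OE, and 2.27, 1.87 and 2.40 in Scr libraries. It was 1.92, 1.63 and 1.64 in KD4 and 1.47, 1.74 and 2.14 in KD6 libraries. In these medians OE overlapped EV, and both KD lines overlapped Scr. Shared regions varied little, with library medians of 6.55 to 7.16 CPM. The median region's SD between replicates was 0.257 on the log2 scale in the OE-only set and 0.201 in the shared set, so single weak regions carried more error.

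**Figure D3:**
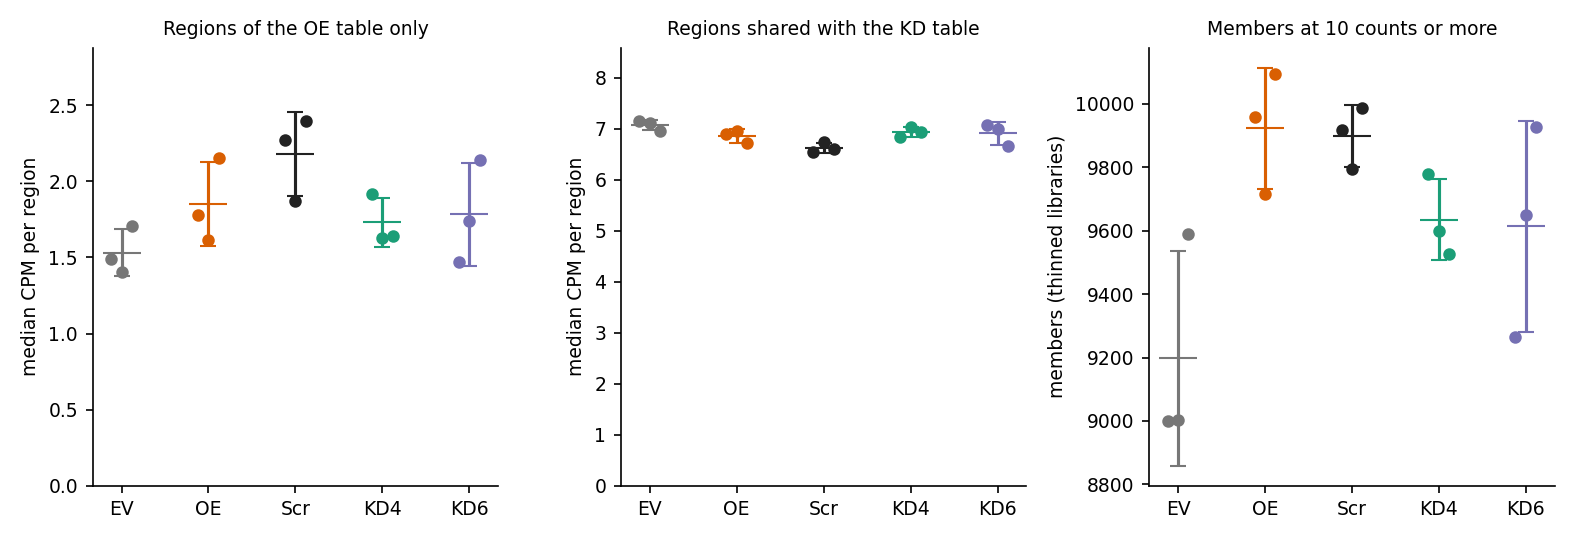
Median CPM per region in OE-only (left) and shared regions (middle), and number of OE-only regions with at least 10 counts in libraries thinned to one depth (right; the axis does not start at 0). Points are single libraries, and bars are the mean with SD (n = 3 per group). The 2 lowest numbers of detected OE-only regions (9001 and 9003) are EV libraries, and Scr libraries have the highest group mean of the median level.

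The share of autosomal counts that fell in OE-only regions was 25.4% to 29.6% over the libraries. It averaged 27.6% ± 1.02 in EV and 27.4% ± 0.654 in OE libraries (SD, n = 3; exact permutation p = 0.9), a difference of -0.217 points that became 0.351 points without EV replicate 1 and 0.156 points without OE replicate 1. The share averaged 27.2% ± 1.61 in KD4 and 28.2% ± 1.13 in KD6 libraries (SD, n = 3). Pooled over both lines, KD libraries averaged 27.7% ± 1.36 (n = 6) and Scr libraries 28.3% ± 1.39 (n = 3). The difference was -0.538 points (exact permutation p = 0.619, adjusted p = 0.9 for both). That difference was 0.146 points without Scr replicate 3. The 20 tallest regions alone took 17.98% to 22.3% of autosomal counts. The other OE-only regions took 6.95% ± 0.465 in EV and 7.51% ± 0.407 in OE libraries (SD, n = 3; exact permutation p = 0.3).

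Because the region lists rest on peaks from these libraries, the level in EV and OE against Scr, KD4 and KD6 libraries is given as a description only. The median OE-only region had a difference of -0.08 on the log2 scale, and 32.8% had a difference above 0. In shared regions the median was 0.02 and 55.0% were above 0. The OE-only median was the lower of the pair in 19 of 19 autosomes. Both sets varied with level. In the lowest of the 5 bins of CPM per kb the medians were -0.09 in OE-only and -0.07 in shared regions. In the highest bin they were -0.01 and 0.07, and the OE-only median was the lower in every bin. Over all bins the OE-only median was small beside the SD of 0.15 between library medians of replicates. It was -0.05 without EV replicate 2 or Scr replicate 3 and -0.13 without OE replicate 3. All 6 EV and OE libraries stood above all 9 others in 33 OE-only regions (0.322%), where the same held in 0.647% of all regions of the table. They stood below all others in 49 (0.478%), where the background was 0.768%. A difference of more than 1 log2 unit was seen upward in 8 OE-only regions (background 0.0552%) and downward in 2 (background 0.0289%).

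Among regions of at least 1 CPM, the largest differences in favour of EV and OE lay at chr15:99605194-99605858 (2.03) and chr15:99601018-99601174 (1.91), which are described with the OE comparison. The third was chr9:66672099-66672320 (1.48). Its EV libraries had 3.24, 5.05 and 5.58 CPM and its OE libraries 3.78, 3.76 and 4.23 CPM. Scr libraries there had 2.01, 2.26 and 1.68 CPM, KD4 libraries 0.792, 0.797 and 0.575 CPM and KD6 libraries 0.991, 1.27 and 1.05 CPM. Each KD library was below each Scr library there, although edgeR gave an adjusted p of 0.0587 for KD against Scr. Next came a pair on chromosome 13, chr13:51857084-51857383 (1.24) and chr13:51855443-51855689 (1.17).

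The lowest differences were -1.02 at chr17:71270683-71270845 and -1.01 at chr6:3201186-3201588. Both rested on a wide spread. In the first, EV and OE libraries ran from 59.4 to 131 CPM and the other 9 from 59.4 to 497 CPM, with the highest value in KD6 replicate 3. In the second, KD6 replicate 3 was again highest at 394 CPM, against 49.1 to 133 CPM in EV and OE. The next 3 were chr9:30553700-30553861 (-0.97), chr2:131104494-131104660 (-0.95) and chr10:86530216-86530369 (-0.91). The last of these was well separated. Its EV libraries had 102, 119 and 124 CPM, its OE libraries 111, 111 and 114 CPM, and the other 9 libraries 185 to 281 CPM.

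In OE against EV cells, 3 OE-only regions were higher in OE and none was lower (edgeR quasi-likelihood test, adjusted p under 0.05, n = 3 per group). Of the 10259 regions, 10043 had enough counts to be tested. The background over all 37765 tested regions was 0.0106% called higher and 0% lower. With no adjustment, p lay under 0.05 for 1116 OE-only regions that were higher (background 4.37%) and 70 that were lower (background 4.2%). All 3 lay on chromosome 15, and the only other region of the whole table that edgeR called lay beside them. DESeq2 called 3 OE-only regions higher and 0 lower, with a background of 0.0106% higher and 0.00265% lower.

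The strongest call was chr15:99605194-99605858. It had 12.5, 9.99 and 10.1 CPM in EV and 32.2, 30.9 and 27.1 CPM in OE libraries. Scr libraries had 6.07, 4.64 and 3.54 CPM, KD4 libraries 2.71, 3.01 and 3.12 CPM and KD6 libraries 4.11, 5.68 and 4.63 CPM. Every OE library stood above every EV library, and every EV library above every library of the other groups. The log2 fold change of OE over EV was 1.49 ± 0.13 (SE, edgeR adjusted p = 2.8e-05). KD4 libraries all stood below all Scr libraries, but KD against Scr did not pass (log2 fold change -0.33 ± 0.18, edgeR adjusted p = 0.572).

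At chr15:99601018-99601174 the EV libraries had 5.26, 3.53 and 2.53 CPM and the OE libraries 10.3, 11.1 and 9.78 CPM (log2 fold change 1.49 ± 0.19, edgeR adjusted p = 0.00659). The other 9 libraries had 0.751 to 2.38 CPM. At chr15:99600214-99600377 the EV libraries had 0.703, 1.17 and 0.733 CPM and the OE libraries 3.30, 3.79 and 2.60 CPM (1.91 ± 0.26, edgeR adjusted p = 0.0120). Here EV overlapped the Scr, KD4 and KD6 libraries. The shared region called with them, chr15:99610065-99610513, averaged 7.39 ± 0.473 CPM in EV and 13.01 ± 0.899 CPM in OE (SD, n = 3). These 4 were the only regions of the OE table within their 10.3 kb span. Without OE replicate 1 or without OE replicate 2, 1 OE-only region was called in place of 3.

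OE cells carried an added *Smarcd1* cDNA, whose reads would fall on exons of that gene. Without an annotation of mm39 only the spacing of the 4 regions could be compared with exons of an older assembly. Moved together, all 4 could be laid at least 50% on exons of 16 of 792 protein-coding genes of chromosome 15, *Smarcd1* among them. Position along the chromosome was not used, so this comparison can neither name a gene nor set *Smarcd1* aside. Whether these counts came from the vector was not tested.

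The OE-only regions with the smallest p-values in the other direction did not pass. They were chr10:93725430-93725589 (106, 80.2 and 66.9 CPM in EV against 59.4, 55.5 and 58.9 in OE) and chr7:44647144-44647332 (24.8, 18.3 and 15.8 against 14.5, 12.97 and 12.6), both with an edgeR adjusted p of 0.569. EV replicate 1 was the highest library in both.

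Beneath the few calls lay a broad shift. The median log2 fold change of OE over EV was 0.25 in OE-only regions, of which 82.7% were above 0, and -0.03 in shared regions, of which 42.9% were above 0. With other scalings the OE-only median stayed between 0.23 and 0.34, and without TMM the median of all regions rose to 0.12. With at least 50 counts required in 3 libraries, 4949 OE-only regions were left. Their median was 0.15, against -0.02 in shared regions. Without OE replicate 3 the OE-only median was 0.15. In KD against Scr the OE-only median was -0.26, with 15.8% above 0, and the shared median 0.04. With at least 50 counts in 3 libraries these medians were -0.23 and 0.03. Regions of 1 set share their libraries, so this shift amounts to 1 difference between groups of libraries, whose medians overlapped. The shift cannot be read as independent of the rule, because the listing of a region rests on peaks in these same libraries.

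**Figure D4:**
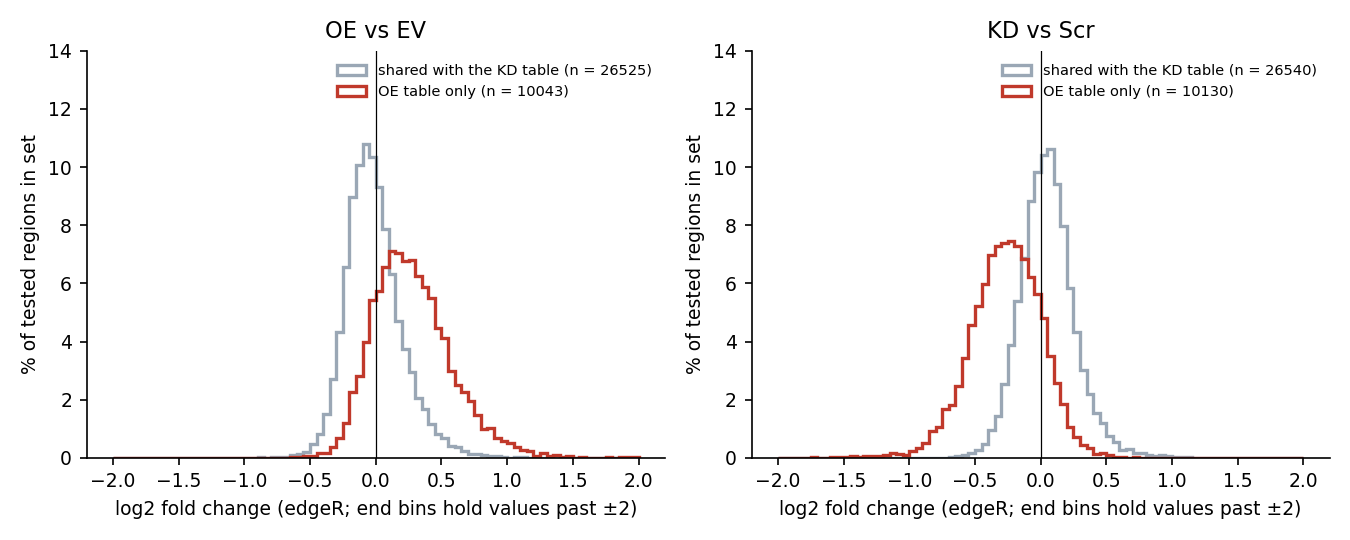
Log2 fold changes (edgeR) of OE over EV (left) and KD over Scr (right) for tested OE-only and shared regions, as percent of the tested regions of each set; the end bins hold values past 2 in either direction. The OE-only curve is centred at 0.25 on the left and at -0.26 on the right, while the shared curves are centred near 0.

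In KD against Scr cells, with KD4 and KD6 averaged, 32 OE-only regions were lower in KD and none was higher (edgeR quasi-likelihood test, adjusted p under 0.05). Of the set, 10130 regions could be tested. The background over all 37868 tested regions was 0.0898% called lower and 0.0739% higher, and among these calls 28 upward and 2 downward were shared regions. The direction of the OE-only calls cannot be read as independent of the rule, because the listing rests on peaks in these same libraries. With no adjustment, p lay under 0.05 for 27 OE-only regions that were higher (background 4.85%) and 1474 that were lower (background 5.01%). DESeq2 called 63 lower and 0 higher, with a background of 0.235% lower and 0.467% higher, and gave no adjusted p for 2014 OE-only regions of low counts. The number of lower calls was 16 without Scr replicate 1, 20 without KD4 replicate 2 and 63 without KD6 replicate 3.

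The 32 regions were not scattered. Joined at up to 50 kb they formed 10 loci, of which 6 held 2 or more regions and 28 regions in all. Their mean levels ran from 0.990 to 92.8 CPM with a median of 5.45 CPM, and log2 fold changes ran from -2.19 to -0.71. The 32 regions were picked by this same comparison, so the separations and percents of Scr that follow are no further test of it. Every KD4 library stood below every Scr library in 32 of 32 regions, and every KD6 library did so in 24. The median region had 29.5% of its Scr mean in KD4 and 59.1% in KD6. In EV it had 88.9% and in OE 94.5% of that mean. None of the 32 passed the test in OE against EV, where the smallest edgeR adjusted p among them was 0.569.

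The largest locus lay on chromosome 7 from 7265592 to 7276148 and held 8 called regions, with no shared region between them. Their summed level was 60.3, 76.3 and 57.2 CPM in Scr, 15.6, 17.4 and 20.9 CPM in KD4 and 31.97, 45.2 and 34.3 CPM in KD6 libraries. EV libraries had 50.9, 47.3 and 62.8 CPM and OE libraries 54.7, 54.2 and 66.3 CPM. Both KD lines stood clear of Scr, KD4 clear of KD6, and EV, OE and Scr overlapped. The 8 log2 fold changes lay between -1.46 and -1.18 (edgeR adjusted p from 0.00156 to 0.0383).

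On chromosome 14, 6 called regions lay from 51031012 to 51038775. Their sum was 21.2, 34.2 and 26.7 CPM in Scr, 4.17, 6.16 and 6.86 CPM in KD4 and 10.8, 15.1 and 15.1 CPM in KD6 libraries. EV averaged 26.4 ± 2.32 CPM and OE 27.8 ± 2.05 CPM (SD, n = 3). The lowest fold change of the whole set was here, at chr14:51038589-51038775 (-2.19 ± 0.26). It had 1.44, 2.07 and 2.06 CPM in Scr, 0.209, 0.254 and 0.246 CPM in KD4 and 0.697, 0.618 and 0.740 CPM in KD6 libraries. The locus ended 6183 bp before chr14:51044959-51045163, one of the 5 tallest regions, which had a log2 fold change of 0.16 (edgeR adjusted p = 0.805).

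A pair of loci fell in KD4 and little in KD6. On chromosome 8, 6 called regions from 80387579 to 80403167 summed to 311, 290 and 275 CPM in Scr and to 106, 109 and 115 CPM in KD4 libraries. KD6 libraries had 252, 246 and 262 CPM, 86.7% of the Scr mean. On chromosome 6, 4 called regions from 72585695 to 72588187 summed to 75.8, 63.7 and 63.6 CPM in Scr, 22.9, 20.1 and 24.9 CPM in KD4 and 62.6, 54.3 and 59.9 CPM in KD6 libraries. All 10 of these regions differed between KD6 and KD4 (edgeR, adjusted p under 0.05). Both shared regions called lower in the table, chr8:80390361-80390662 and chr6:72592662-72593220, lay within or beside these loci.

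**Figure D5:**
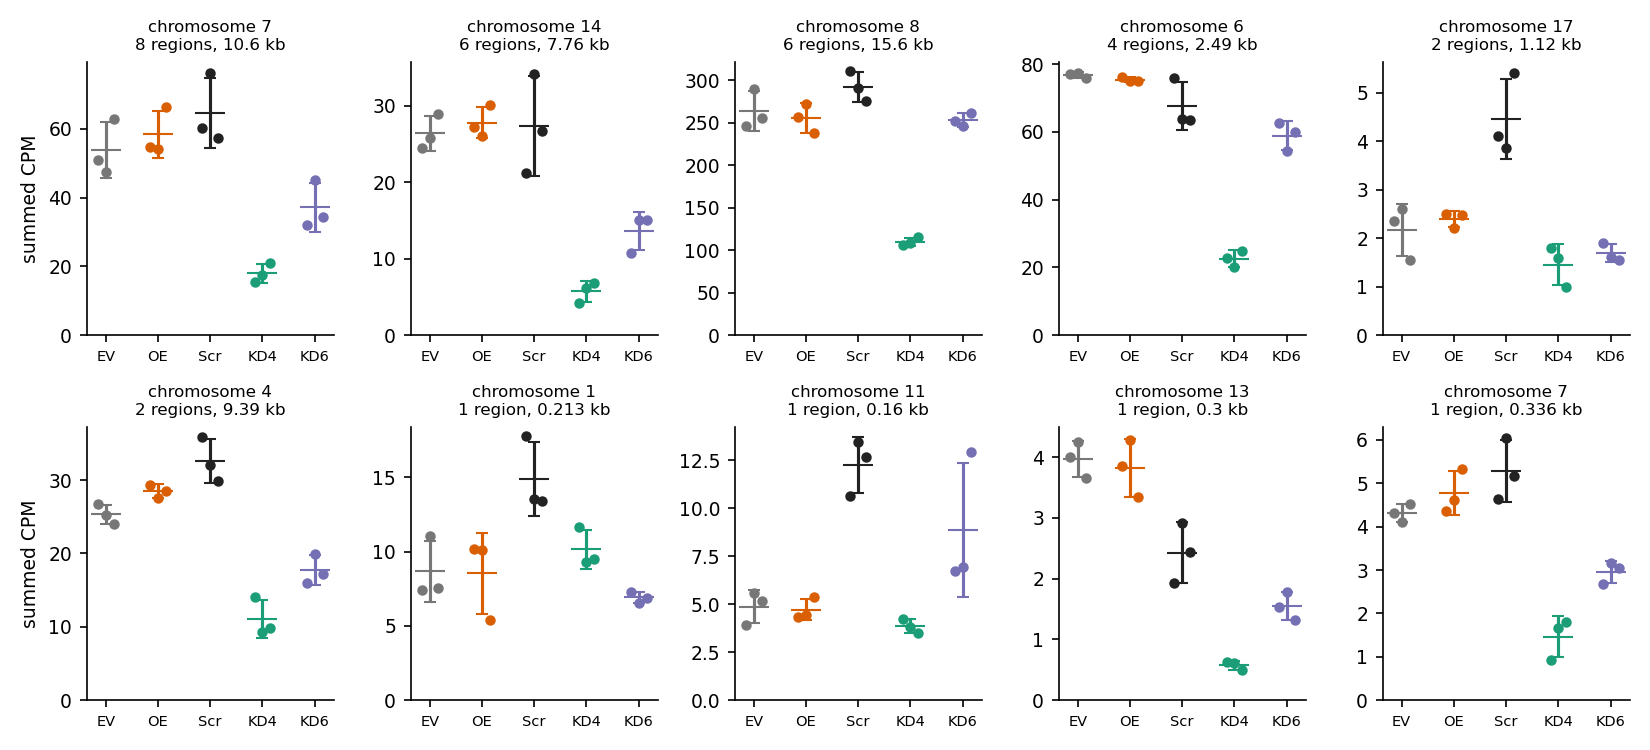
Summed CPM of the called OE-only regions in each of the 10 loci that hold the 32 regions lower in KD than in Scr. Points are single libraries and bars the mean with SD (n = 3). KD4 has the lowest mean in 9 panels and KD6 in the chromosome 1 panel, and KD6 stands between KD4 and Scr in the other 9.

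The remaining loci were smaller. On chromosome 4, 2 regions between 156508389 and 156517777, summed to 32.6 ± 3.02 CPM in Scr, 11.05 ± 2.58 in KD4 and 17.7 ± 2.05 in KD6 (SD, n = 3). On chromosome 17, 2 regions between 26662801 and 26663916 summed to 4.46 ± 0.832, 1.46 ± 0.421 and 1.70 ± 0.187 CPM in the same order. EV (2.17 ± 0.543 CPM) and OE (2.40 ± 0.162 CPM) also stood below Scr there. Single regions lay at chr7:8782162-8782497, chr13:51857084-51857383, chr11:120848808-120848967 and chr1:149981760-149981972. In the region of chromosome 11, EV and OE had 39.8% and 38.5% of the Scr mean, close to the 31.3% of KD4. The region of chromosome 13 had 0.626, 0.616 and 0.493 CPM in KD4 and 1.54, 1.78 and 1.32 CPM in KD6, against 1.92, 2.92 and 2.44 CPM in Scr libraries. That of chromosome 1 was the exception in order, with 68.2% of the Scr mean in KD4 and 46.4% in KD6.

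Set against Scr one line at a time, KD4 gave 54 lower OE-only regions and KD6 gave 1, and none was called in both or called higher in either (edgeR). Over all tested regions KD4 gave 0.185% lower and 0.108% higher calls, and KD6 0.00264% lower and 0.0132% higher. Of the 32 regions, 30 were called in KD4 alone and 1, on chromosome 1, in KD6 alone, although all 32 had a log2 fold change below 0 in KD6. The difference between the lines was tested directly. In KD6 against KD4, 26 OE-only regions were higher and none was lower, where the background was 0.166% higher and 0.0238% lower. With no adjustment, p lay under 0.05 for 313 higher (background 2.88%) and 117 lower OE-only regions (background 2.16%). Of the 26 called, 14 were among the 32.

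No OE-only region was called higher in KD. The smallest p-values in that direction belonged to chr4:43518231-43518460 and to a region of chromosome 18. The first had 26.9, 24.6 and 26.3 CPM in Scr, 39.0, 34.1 and 35.2 CPM in KD4 and 31.5, 27.8 and 32.8 CPM in KD6 libraries. All KD libraries stood above all Scr libraries, but the log2 fold change of 0.36 ± 0.11 did not pass (edgeR adjusted p = 0.302).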

How the data were processed

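ATAC-seq counts of 15 libraries from monolayer 6DT1 cells were used (EV, OE, Scr, KD4 and KD6, 3 libraries each, grouped by sample title). The authors deposited the values as estimated counts per called region: of those in the OE table, 95.0% were exactly whole, none was 0 and the smallest was 1. The study's methods name Bowtie2, MACS and Partek Flow with mm39, and STAR 2.7.8a appears among the tools listed by the submitters; how peaks were merged into region lists was not stated. Each table also held 15 columns that matched no sample and were not used.

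The OE-only regions were found by base overlap of both tables. Counts were rounded and tested over the whole OE table with edgeR 4.0.16 in R 4.3.3 (TMM, filterByExpr, quasi-likelihood F-test, Benjamini-Hochberg adjustment, threshold 0.05), KD being the mean of KD4 and KD6. The procedure was tried on simulated data in which only regions of higher counts were changed. That trial gives no recovery rate for weak regions. DESeq2 1.42.0 served as an alternative. Log2 levels used CPM plus 0.5. This edgeR test reports no SE, so each SE given is the absolute log2 fold change divided by the square root of F. Library values were compared by exact permutation (scipy 1.17.1) after thinning where stated. KD4 and KD6 libraries were pooled there, so these p-values do not measure the spread between lines. Other scalings, filters, thresholds and libraries left out were tried, and TMM from shared regions was added after the data were seen. Totals of 22668622 to 31225956 counts per library set the precision; intervals between libraries cover these cultures only.

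The members, the lists and the rule for named regions were chosen with earlier results of these data known. Regions were named for the 5 highest levels, the 3 largest widths, up to 5 calls per direction by p (2 where none passed), the 5 highest and 5 lowest differences of EV and OE from the rest, and the run with most members. The other called regions of a locus, the next 5 in height and the shared neighbours were named after their values were seen. The genome and gene tables used here were of other assemblies than mm39, so gene lists, promoters, motifs and sequences fixed in the plan were not analysed here. No same-numbered libraries were treated as pairs, since the correlation of their deviations from group means ran from -0.038 to 0.324 for EV and OE, and from -0.345 to 0.342 for Scr, KD4 and KD6. No libraries of a group agreed within counting noise.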

Additional observations from a re-analysis of the deposited data

Results flagged for a closer look

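The KD6 and KD4 lines differed from each other in 26 OE-only regions, all of them higher in KD6 (edgeR quasi-likelihood test of KD6 against KD4, adjusted p under 0.05, n = 3 per line). The strongest was chr8:80402935-80403167, with 11.1, 9.17 and 9.98 CPM in KD4 and 26.9, 25.9 and 29.6 CPM in KD6 libraries, a log2 difference of 1.45 ± 0.13 (edgeR adjusted p = 0.000233). Of the 26, 14 were also among the 32 regions lower in KD than in Scr, and the other 12 were not called in that comparison. Groups of 3 libraries were too small to look for a single library far from its group by a fixed criterion.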

How the results depend on the processing

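OE against EV called 3 OE-only regions, and 1 to 3 with 1 library left out, 1 of these without OE replicate 1 or OE replicate 2. KD against Scr called 32, but 63 by DESeq2, 54 in KD4 alone, 1 in KD6 alone and 16 to 63 with 1 library left out. Every call under every setting tried was higher in OE or lower in KD, and other scalings and filters stayed within 1.5 times of these counts. That direction cannot be read as independent of the rule that defines the set. The share of counts, OE minus EV, was 1.06 points when the 20 regions with the largest totals in the whole table, OE-only or not, were left out, and -0.635 to 0.351 points with 1 library left out, and KD minus Scr -1.24 to 0.146 points. The number of detected regions, KD minus Scr, was -335 to -203 with 1 library left out. It was -335 (exact permutation p = 0.0357) without KD6 replicate 3, the KD library that overlapped Scr. Over the 9 omissions the exact permutation p ran from 0.0357 to 0.214, without adjustment. The median width difference from shared regions was 26 bp in the lowest of 5 bins of level, -63, -94 and -119 bp in the upper 3, and -58 to -14 bp over the autosomes. The median spacing difference was 2017 bp for regions at least 500 bp from the KD table, 884, 433.5 and 735 bp in the lower 3 bins of level, and 853 to 2547 bp over the autosomes. The cause of these changes was not tested beyond the libraries or regions left out. With the replicate number as a block 3 regions were called in OE and 28 in KD, and the numbers did not pair the libraries. Weak regions, with a median of 37.3 to 63 counts, limit what could be called.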
